A study of Rattus norvegicus with 4 samples.

Results

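The genes of the cartilage-type collagen fibril were followed in articular cartilage, the tissue that covers the ends of bones in a joint. They are Col2a1 (collagen II), Col9a1, Col9a2 and Col9a3 (collagen IX), Col11a1 and Col11a2 (collagen XI) and Col27a1 (collagen XXVII), chosen by gene symbol as the collagens of the cartilage fibril, 7 genes of 31007 rows. Each symbol stood on a single row. Col9a3 was listed at 0 in all 4 libraries and the other 6 genes were tested. The tissue came from the proximal tibia of 2 Sprague-Dawley rats, 10 weeks old, for which the labels name no treatment, genetic change or sex. Each rat gave 1 library of the superficial zone (SFZ), the layer at the joint surface, and 1 library of the deeper layers (deep AC). Both areas were cut from frozen sections by laser microdissection, and the RNA was linearly amplified before mRNA sequencing. The sources used here do not give where the border between the areas was drawn. The comparison asks how expression at the surface differs from that of the layers beneath it. Differences are log2 values of SFZ minus those of deep AC, taken within each rat, and there were 2 rats.

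Collagen II is the main fibril-forming collagen of hyaline cartilage and is a homotrimer of the Col2a1 product. Collagen XI is a heterotrimer that lies within the same fibrils and limits their width; it is built from the Col11a1 and Col11a2 products together with a chain that the Col2a1 gene also encodes. Collagen IX, a heterotrimer of the Col9a1, Col9a2 and Col9a3 products, does not form fibrils itself but sits on their surface and is cross-linked to collagen II. Collagen XXVII is a further fibril-forming collagen, known from growth plate and other cartilage. In articular cartilage the fibrils run parallel to the surface in the superficial zone and more steeply in the deep layers.

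The sequences just upstream of the collagen IX and collagen XI genes are shown because the size of the difference between zones separated these pairs of genes. They are the 250 bases before the gene start in the RefSeq promoter table (build GRCr8), which held 5 of the 7 genes; Col2a1 and Col9a3 had no entry. Capitals mark matches on either strand to the GC box GGGCGG, the site of SP1-type factors, and to the E box CAGGTG, a site of Snail and ZEB repressors.
Col9a1, chr9:34081114-34081363, plus strand: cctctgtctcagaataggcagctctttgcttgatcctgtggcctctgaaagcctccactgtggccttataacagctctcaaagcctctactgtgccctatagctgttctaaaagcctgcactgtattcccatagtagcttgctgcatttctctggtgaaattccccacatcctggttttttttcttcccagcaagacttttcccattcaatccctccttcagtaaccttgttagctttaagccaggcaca
Col9a2, chr5:139892548-139892797, plus strand: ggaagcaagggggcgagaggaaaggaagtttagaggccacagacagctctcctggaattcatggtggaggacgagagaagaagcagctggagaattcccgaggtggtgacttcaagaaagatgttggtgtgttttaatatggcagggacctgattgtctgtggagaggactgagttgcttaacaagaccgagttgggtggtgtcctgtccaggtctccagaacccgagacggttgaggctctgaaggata
Col11a1, chr2:204508886-204509135, plus strand: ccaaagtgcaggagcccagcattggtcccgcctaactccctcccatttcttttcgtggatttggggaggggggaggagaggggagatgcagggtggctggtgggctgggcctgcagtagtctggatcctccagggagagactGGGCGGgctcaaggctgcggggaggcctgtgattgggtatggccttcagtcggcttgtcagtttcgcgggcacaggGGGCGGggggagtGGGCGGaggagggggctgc
Col11a2, chr20:4817649-4817898, minus strand: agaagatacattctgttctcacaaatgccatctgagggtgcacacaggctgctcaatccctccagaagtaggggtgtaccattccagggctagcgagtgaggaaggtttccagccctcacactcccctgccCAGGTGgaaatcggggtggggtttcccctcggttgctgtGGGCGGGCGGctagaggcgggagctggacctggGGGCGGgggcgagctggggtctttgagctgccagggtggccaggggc
The Col11a1 stretch held 3 GC boxes, the nearest starting 19 bases before the gene start. The Col11a2 stretch also held 3, starting 80, 76 and 47 bases before the start, of which the first pair overlap, and 1 E box starting 119 bases before it. Col27a1 held 1 GC box, and the Col9a1 and Col9a2 stretches held none. Among 33469 promoter stretches of this length, 30.5% held a GC box and 15.9% held the E box. None of the 5 stretches held the SOX core letters ACAAAG (found in 16.3% of all stretches) or ACAATG (11.1%), or the TATA box letters TATAAA (12.9%). The share of G and C bases was 46.8% for Col9a1 and 52.0% for Col9a2, against 65.6% for Col11a1, 62.8% for Col11a2 and 58.8% for Col27a1; the median over all stretches was 51.2%. These matches describe letters in a window and are not evidence of binding. The pairs were picked by their differences between zones, and a link between these letters and the differences was not tested.

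Of the 6 tested genes, 5 were lower in SFZ in both rats, and collagen II and collagen IX genes stood apart most. None of the 6 passed the threshold of an adjusted p of 0.05 (limma with zone and rat as terms, Benjamini-Hochberg over 8763 tested genes); 4 had an unadjusted p under 0.05, all of them lower in SFZ. Among all tested genes, 28.9% were lower in SFZ in both rats, 4.96% were lower with an unadjusted p under 0.05, and 0.0342% passed as lower. With quantile normalization in place of the deposited scaling, Col2a1 (adjusted p = 0.034), Col9a1 (0.00244) and Col9a2 (0.00141) passed limma. They were among 173 of 8763 tested genes that passed under that scaling, 98 of them lower in SFZ. Quantile normalization ranks genes by level within each library, and the levels of these collagen genes are estimates. No other processing alternative brought a gene of the family past the threshold. At least 2-fold lower in both rats were 4 of the 6, against 11.9% of all tested genes. In 5 of the 6 both SFZ libraries lay below both deep AC libraries, against 22.9% of all tested genes. The median difference over the 6 genes was -1.94 in rat 1 and -1.99 in rat 2, against -0.13 and 0.00 over all tested genes. In bulk tissue of this kind, fewer cells of a type and less RNA per cell cannot be told apart.

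**Figure D1:**
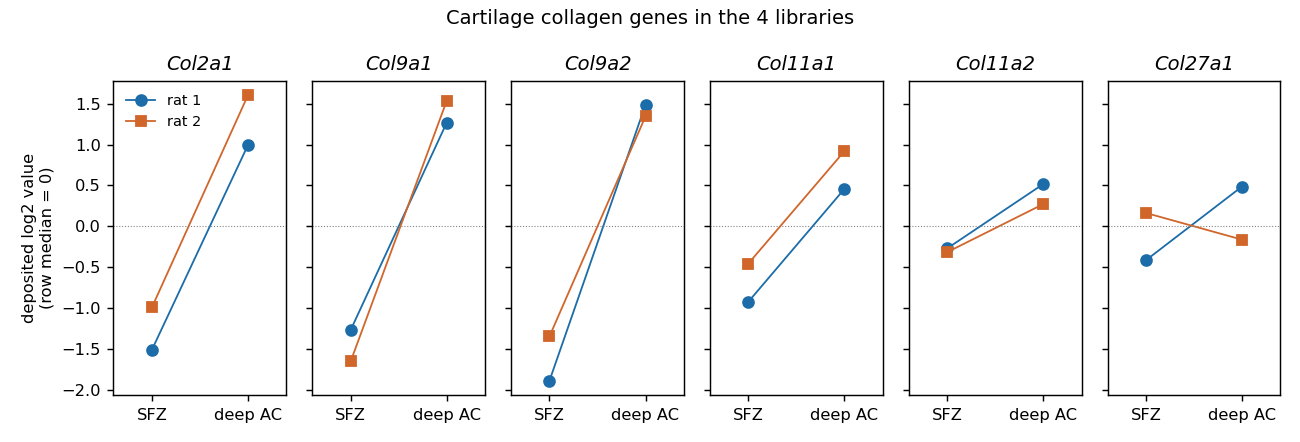
Deposited log2 values of the 6 tested genes in each library (vertical axis, row median set to 0), with SFZ left and deep AC right; a line joins the libraries of 1 rat. The SFZ points lie below both deep AC points for 5 genes, and for Col27a1 the lines cross.

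Col2a1 (Entrez 25412; rn4 chromosome 7, 136679219 to 136707976, minus strand) had deposited log2 values of -1.51 and -0.99 in SFZ of rats 1 and 2, against 0.99 and 1.60 in deep AC. These values are relative to the gene's own median over the 4 libraries. Both SFZ libraries were low and both deep AC libraries high, with a gap of 1.99 between the nearest values of the zones, while libraries of the same zone differed by 0.52 in SFZ and 0.61 in deep AC. The mean within-rat difference was -2.55 ± 0.06 (SD, n = 2 rats; limma SE 0.53, 95% interval -3.90 to -1.21, adjusted p = 0.310), a deep AC level 5.86 times that of SFZ. 

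The collagen IX genes had the lowest mean within-rat differences of the family. Col9a2 (Entrez 362584; rn4 chromosome 5, 141623365 to 141640224, plus strand) stood at -1.89 and -1.35 in SFZ and at 1.49 and 1.35 in deep AC. The zones did not overlap, and the nearest values were 2.69 apart. Its mean difference was -3.04 ± 0.48 (SD, n = 2 rats; limma SE 0.39, 95% interval -4.04 to -2.03, adjusted p = 0.149), an 8.20-fold ratio of deep AC over SFZ. Col9a1 (Entrez 305104; rn4 chromosome 9, 22907068 to 22990836, plus strand) stood at -1.27 and -1.65 in SFZ and at 1.27 and 1.54 in deep AC. Here too both SFZ libraries lay below both deep AC libraries, by at least 2.54. The mean difference of Col9a1 was -2.86 ± 0.46 (SD, n = 2 rats; limma SE 0.40, 95% interval -3.88 to -1.84, adjusted p = 0.156), a 7.28-fold ratio of deep AC over SFZ. 

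Which of the collagen IX chains was lower depended on the rat. In rat 1 Col9a2 had the lower difference, at -3.38 against -2.54 for Col9a1, and in rat 2 Col9a1 had it, at -3.19 against -2.69 for Col9a2. The log2 ratio of Col9a2 to Col9a1 therefore changed by -0.84 in rat 1 and 0.50 in rat 2, opposite signs. Col9a3 (Entrez 362285; rn4 chromosome 3, 169704893 to 169712492, plus strand), the remaining chain of the trimer, was listed at 0 throughout and has no fold. Hspa5, which encodes a chaperone that every cell uses, was also listed at 0 in all 4 libraries, as were 20218 rows in all, so a row at 0 does not show that a gene was silent.

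The collagen XI genes had smaller differences than collagen II in both rats. Col11a1 (Entrez 25654; rn4 chromosome 2, 209996467 to 210193800, plus strand) stood at -0.92 and -0.46 in SFZ and at 0.46 and 0.92 in deep AC. The zones did not overlap, and the nearest values were 0.91 apart. Its within-rat differences were -1.38 in both rats, a mean of -1.38 ± 0.0039 (SD, n = 2 rats; limma SE 0.37, 95% interval -2.32 to -0.44, adjusted p = 0.416), or a 2.60-fold ratio of deep AC over SFZ. The agreement of the pair is closer than the libraries of 1 zone were to each other, which were 0.47 apart in SFZ and 0.46 apart in deep AC; in both zones rat 2 had the higher value.

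Col11a2 (Entrez 294279; rn4 chromosome 20, 4924452 to 4953310, minus strand) stood at -0.27 and -0.32 in SFZ and at 0.52 and 0.27 in deep AC. The 2 SFZ values were close together, and the nearest deep AC value was 0.54 higher. The differences were -0.79 in rat 1 and -0.59 in rat 2, a mean of -0.69 ± 0.14 (SD, n = 2 rats; limma SE 0.36, adjusted p = 0.581), or a 1.61-fold ratio of deep AC over SFZ. The 95% interval of -1.61 to 0.23 includes both no difference and one as large as that of Col11a1. 

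Col27a1 (Entrez 298101; rn4 chromosome 5, 80198078 to 80316354, plus strand) was the only tested gene of the family whose zones overlapped. It stood at -0.42 and 0.16 in SFZ and at 0.49 and -0.16 in deep AC. It was also the only one whose reads could be recovered as whole numbers: SFZ had 97 and 148 reads, and deep AC 186 and 128. In rat 1 the difference was -0.90, with an exact (Clopper-Pearson) 95% counting interval of -1.27 to -0.54. In rat 2 it was 0.33, with an interval of -0.02 to 0.68. The rats thus went in opposite directions, and the mean of -0.29 ± 0.87 (SD, n = 2 rats; limma SE 1.09, 95% interval -3.06 to 2.48, adjusted p = 0.953) was smaller than the spread between them. Amplified RNA yields many reads per starting molecule, so these intervals cover counting error only.

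**Figure D2:**
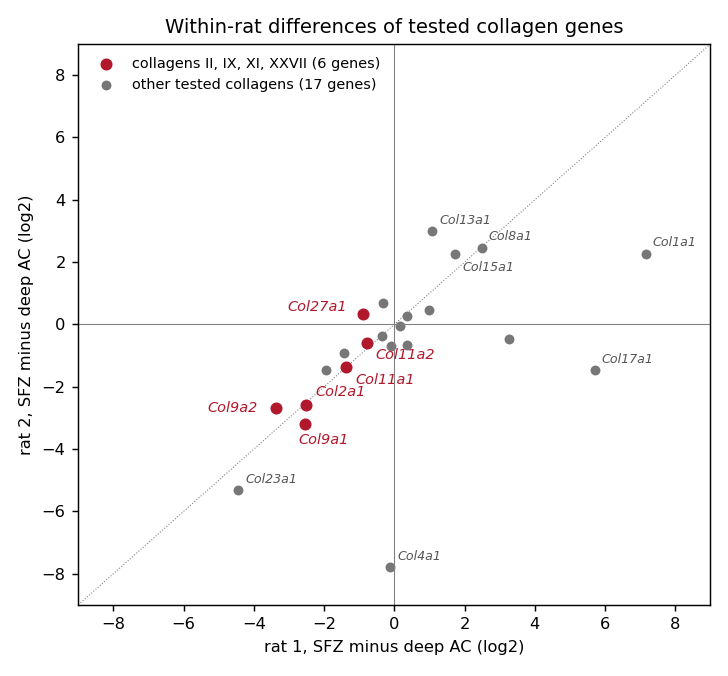
SFZ minus deep AC (log2) in rat 1 (horizontal) and rat 2 (vertical) for the 6 tested genes of the family (red) and 17 other tested collagen genes (grey); the dotted line marks equal differences. Col2a1, Col9a1, Col9a2, Col11a1 and Col11a2 lie near the line in the lower left, and Col27a1 is at -0.90 and 0.33.

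From the lowest mean difference up, the order was Col9a2, Col9a1, Col2a1, Col11a1, Col11a2 and Col27a1. Col9a2 was lowest in rat 1 and Col9a1 in rat 2. Col2a1, at -2.51 and -2.60, was above both in each rat, but close to Col9a1 at -2.54 in rat 1 and to Col9a2 at -2.69 in rat 2, so these 3 do not differ beyond their spread. Both collagen XI genes were above all 3 in each rat, and Col11a2 was above Col11a1 in both. In rat 1 Col27a1 at -0.90 was below Col11a2 at -0.79, and in rat 2 it was above it. Among the 8763 tested genes, the mean difference of Col9a2 ranked at 10.2% from the lowest, Col9a1 at 11.2%, Col2a1 at 13.3%, Col11a1 at 21.5%, Col11a2 at 31.8% and Col27a1 at 43.3%.

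**Figure D3:**
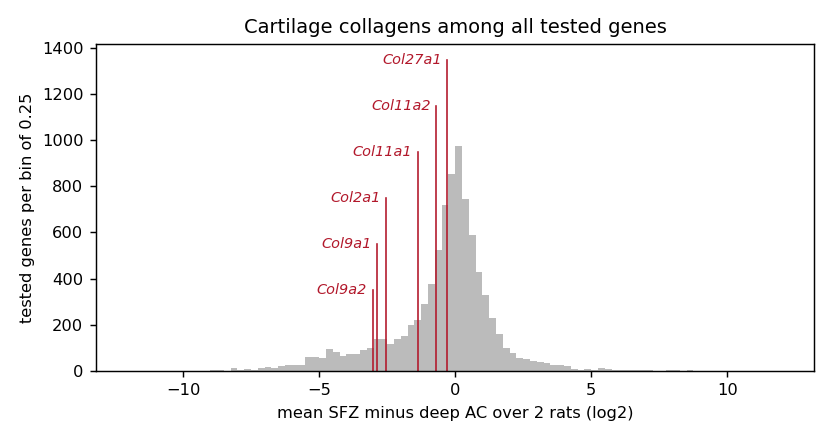
Histogram of the mean SFZ minus deep AC difference (log2) of all 8763 tested genes, with vertical red lines at the 6 genes of the family; line heights carry no value. The collagen II and IX genes sit in the lower tail between -3.04 and -2.55, and Col27a1 at -0.29 sits near the centre.

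A ratio of 2 genes in 1 library does not depend on a single scaling factor applied to that library, so each gene was also set against Col2a1, giving 5 comparisons. Relative to Col2a1, collagen XI was higher in SFZ in both rats, by 1.13 and 1.22 for Col11a1 and by 1.72 and 2.01 for Col11a2. The means were 1.17 ± 0.07 and 1.86 ± 0.21 (SD, n = 2 rats each). Each change was larger than the spread between the rats. Col27a1 was higher relative to Col2a1 by 1.60 and 2.92, a mean of 2.26 ± 0.93. The collagen IX genes changed less against Col2a1, by -0.03 and -0.59 for Col9a1 (mean -0.31 ± 0.40) and by -0.87 and -0.10 for Col9a2 (mean -0.48 ± 0.55), with means no larger than the spread between the rats. In an exact sign-flip permutation test over 2 rats (two-sided) each of the 5 ratios had p = 0.5, the smallest this design allows, so none could pass the threshold before or after adjustment. Within collagen XI, the ratio of Col11a2 to Col11a1 was higher in SFZ by 0.59 in rat 1 and 0.79 in rat 2.

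**Figure D4:**
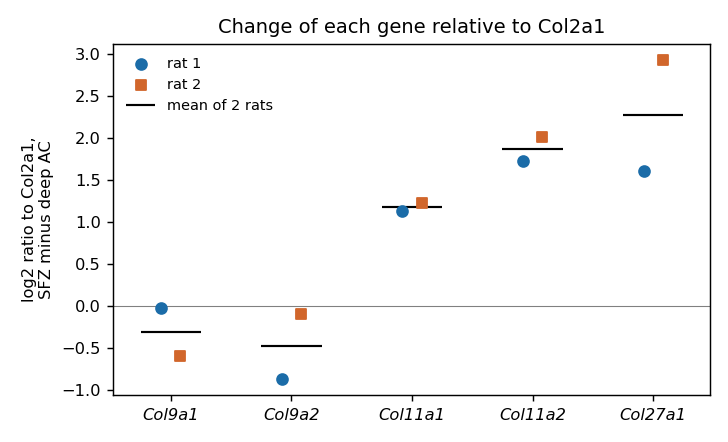
Log2 ratio of each gene to Col2a1, SFZ minus deep AC (vertical), for rat 1 (circles) and rat 2 (squares), with a bar at their mean. The collagen IX genes lie between -0.87 and -0.03, while Col11a1, Col11a2 and Col27a1 lie between 1.13 and 2.92.

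Over the 4 libraries, the tested genes with values most like those of Col2a1 (smallest root-mean-square distance after each gene was centred on its own mean) were Stradb at 0.11, Agt at 0.14, Mark4 at 0.14, Ccdc80 at 0.15 and Acyp2 at 0.17. Stradb encodes a pseudokinase partner of LKB1, Agt angiotensinogen, Mark4 a microtubule-affinity regulating kinase, Ccdc80 a secreted matrix protein and Acyp2 an acylphosphatase. In the same order of 8762 genes Col9a2 came 31st with a distance of 0.36, Col9a1 37th with 0.38, Col11a1 124th with 0.59, Col11a2 826th with 1.0 and Col27a1 1953rd with 1.22. With 4 libraries the distance describes these libraries alone. Mark4 was a low-level gene, with a mean log2 level of 3.57 and a limma SE of 1.98, so counting error bears on its place.

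The other fibril-forming collagens did not show the pattern of collagens II, IX and XI, although the difference between the lists was not tested. Of 7 genes of collagens I, III, V and XXIV, 6 were tested. In both rats 1 was lower and 3 were higher in SFZ, and none passed over all tested genes. Among all tested genes 28.9% were lower and 25.2% higher in both rats, the shares to set beside the counts of each list below. Their medians were 0.68 in rat 1 and 0.10 in rat 2. Col1a1, the main collagen chain of bone and fibrous tissue, stood at 7.16 and 2.27 (SD 3.45, limma SE 1.85, adjusted p = 0.532). Col1a2 stood at 0.99 and 0.45, Col3a1 at 0.37 and 0.26, and Col5a1, a chain of the minor fibril collagen V, at -0.09 and -0.71. Col24a1 was listed at 0. Of 24 remaining collagen genes 11 were tested, 5 lower and 3 higher in both rats, with medians of -0.12 and -0.65 and none past the threshold. Among them Col23a1, a transmembrane collagen, was at the floor (1 scaled read, the lowest value the table can hold) in both SFZ libraries. It had 22 and 43 reads in deep AC. Against 3 reads over the zone Col23a1 was at least 20.3-fold lower in SFZ (limma adjusted p = 0.542). That bound covers counting error only, not the spread between libraries. Col4a1, of basement membranes, had 95 reads in SFZ of rat 1 and was at the floor in SFZ of rat 2, against 106 and 241 in deep AC. Col8a1 stood at 2.48 and 2.47 and the transmembrane Col13a1 at 1.06 and 3.0.

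Genes that modify, fold and export procollagen had median differences smaller than those of the collagen II and IX genes. Of 14 hydroxylation and glycosylation genes 11 were tested; in both rats 8 were lower in SFZ and none was higher, 1 with an unadjusted p under 0.05 and none past the threshold, with medians of -0.41 and -0.32. The prolyl 3-hydroxylase gene Lepre1 stood at -1.20 and -1.12 (limma adjusted p = 0.459), the prolyl 4-hydroxylase subunit P4ha2 at -0.55 and -0.94, and the lysyl hydroxylases Plod1 and Plod2 at -0.89 and -0.40 and at -0.47 and -0.56. Of 16 folding and export genes 10 were tested, 6 lower and 3 higher in both rats, with medians of -0.38 and -0.31 and none past the threshold. The collagen chaperone Serpinh1 stood at -1.08 and -0.61, the immunophilin Fkbp10 at -0.66 and -0.72, and the stress-response factor Xbp1 at -0.54 and -0.35. Tmem38b, an endoplasmic reticulum channel, was at the floor in SFZ of rat 1 and had 35 reads in SFZ of rat 2, against 286 and 335 in deep AC.

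Propeptide processing and cross-linking genes went both ways. Of 13 genes 10 were tested, 2 lower and 3 higher in both rats, with medians of -0.15 and 0.58 and none past the threshold. The shares over all tested genes were 28.9% lower and 25.2% higher, so these counts do not set the list apart. Tll1, a protease that removes procollagen C-propeptides, stood at 4.91 and 3.45 (limma adjusted p = 0.142), and Loxl2, a lysyl oxidase of collagen cross-links, at 0.28 and 1.07. Adamts2, which removes N-propeptides, had 60 and 6 reads in the SFZ libraries, against 7 in deep AC of rat 1 and the floor in deep AC of rat 2. Lox, another lysyl oxidase, was at the floor in SFZ of rat 1 and had 247 reads in SFZ of rat 2, against 329 and 447 in deep AC.

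Proteins that bind the cartilage fibril were mostly lower in SFZ. Of 16 genes 10 were tested, 7 of them lower and 2 higher in both rats, with medians of -1.52 and -1.43; 4 had an unadjusted p under 0.05, all lower, and none passed. Matn3, a matrilin that links fibrils to other matrix, was at the floor in SFZ of rat 1 and had 22 reads in SFZ of rat 2, against 984 and 1786 in deep AC (limma adjusted p = 0.271). Lum, a small proteoglycan, had 33 reads in SFZ of rat 1 and was at the floor in SFZ of rat 2, against 211 and 180 in deep AC. Dcn, another small proteoglycan, stood at -1.69 and -4.01, and Acan, the large proteoglycan held within the fibril network, at -1.55 and -2.52. The 2 genes higher in both rats, Fmod and Prelp, also belong to the small proteoglycans. The small proteoglycans of this list thus went both ways.

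The tested transcription regulators of cartilage collagens were few and mixed. Of 20 genes 11 were tested, 3 lower and 4 higher in both rats, against 28.9% and 25.2% of all tested genes. The medians were 0.24 and -0.35, and none passed the threshold. Sox9 and Sox5, activators of Col2a1, were listed at 0 in all 4 libraries, while Sox6, their partner, stood at 0.74 and 3.21. Snai1, a repressor of Col2a1, stood at -1.33 and -1.43 (limma adjusted p = 0.447), Zfp219, a SOX9 cofactor, at -0.80 and -1.28, and Hif1a, a factor of the oxygen response, at -0.69 and -1.18.

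Among collagen receptors, 5 of 7 were tested, 2 lower and 2 higher in both rats, against 28.9% and 25.2% of all tested genes. Their medians were -0.29 and 0.50. The integrin chains Itga10 and Itga11 stood at -1.29 and -0.74 and at -0.29 and -2.04, while Itga1 stood at 3.4 and 1.04 and their shared partner Itgb1 at 0.87 and 0.50; none passed. Of 12 genes of collagen breakdown and its inhibitors 10 were tested, 3 lower and 6 higher in both rats. The medians were 0.03 and 0.25, and none passed the threshold. The list includes Timp1, Timp2 and Timp3, which encode inhibitors of metalloproteinases. Timp2 and Timp3 were among the genes higher in both rats, and Timp1 went both ways. Mmp13, a collagenase of rodent cartilage, did not rise above the floor in either SFZ library, while deep AC had 254 and 116 reads. Against 3 reads over the zone Mmp13 was at least 119-fold lower in SFZ (limma adjusted p = 0.421). Here too the bound covers counting error only. The lysosomal collagenase Ctsk stood at -0.52 and -2.17, the membrane protease Mmp14 at -0.45 and -1.68 and the surface protease Fap at 0.89 and 1.57.

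**Figure D5:**
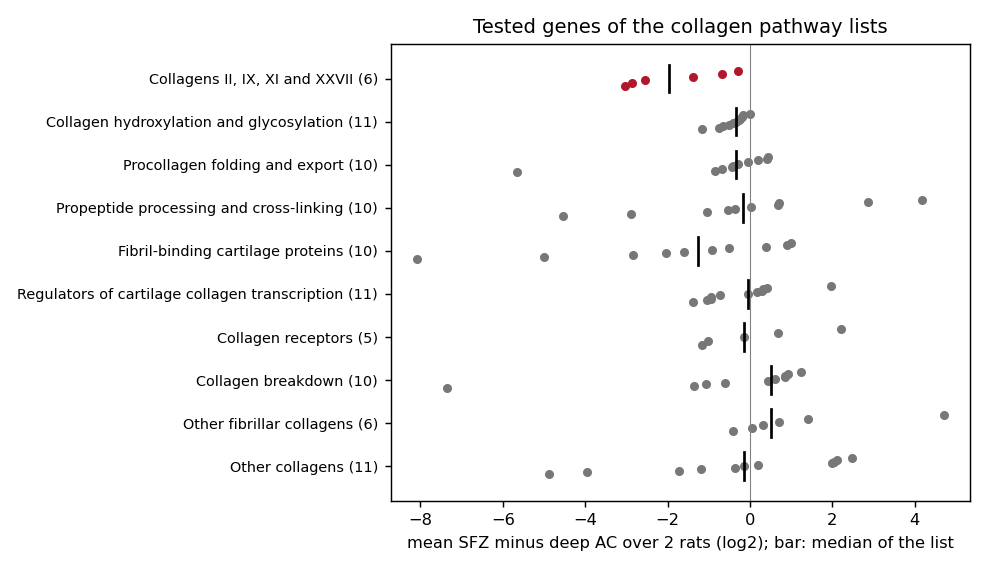
Mean SFZ minus deep AC difference (log2, horizontal) of each tested gene of the family (red) and of each pathway list (grey), with the number of tested genes in brackets and a black bar at the median. The family median of -1.97 is the lowest, followed by the fibril-binding proteins at -1.26.

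The 4 superficial zone markers were all higher in SFZ in both rats. Prg4, the lubricin gene, stood at 2.11 and 3.48, Clu at 4.43 and 6.89, Cilp at 2.09 and 2.52, and Cilp2 at 0.35 and 1.06. They were chosen with earlier results of these data known, so they are no independent check of the zone labels. Beside Col2a1, which is itself a result here, 4 chondrocyte markers were tested and all were lower in SFZ in both rats; Sox9, a defining one, was listed at 0. Among markers that moved with the collagens, 5 of 6 tested genes of hypertrophic and calcified cartilage were lower in SFZ in both rats. The medians were -7.87 and -7.98, and both draw on Mmp13, which was at the floor in both SFZ libraries. They thus depend on the floor. The summed level of these markers in scaled reads was 3059 and 9177 for SFZ and 40111 and 132665 for deep AC. It rests on estimated levels for 3 genes, and Col10a1, a defining gene, was listed at 0. Of the osteoblast and osteocyte markers 2 were lower in both rats, Dmp1 (-9.02 and -5.61) and Mepe (-4.75 and -3.79). The 2 higher in both were the collagen I genes Col1a1 (7.16 and 2.27) and Col1a2 (0.99 and 0.45). Phex went both ways (0.65 and -5.24). Their summed levels were 15870 and 38644 scaled reads in SFZ and 8043 and 28342 in deep AC, 1 gene with an estimated level. Sp7 and Sost were listed at 0. Of 7 striated muscle markers 2 were tested, and Tnni2, a fast troponin whose level is an estimate, stood at -9.66 and -10.47, while Ckm, the muscle creatine kinase, went the other way and was above the floor in SFZ of rat 2 alone. The muscle sum, which in deep AC rests on Tnni2, was 146 and 238 scaled reads for SFZ and 115694 and 199240 for deep AC, with Acta1, Tnnt3 and Actn3 listed at 0. The muscle genes Myh4 and Mylpf had values but averaged under the minimum of 10 scaled reads. Of 7 tested macrophage and leukocyte markers, 2 were lower and 2 higher in both rats. Synovial and tendon fibroblast markers were mostly higher, with 3 of 5 higher and 1, Scx, lower in both rats (-1.17 and -1.66), and summed levels in scaled reads of 53776 and 75914 for SFZ and 18642 and 20504 for deep AC, 2 genes with estimated levels; Thy1 and Mkx were listed at 0. The part of these cell types in the collagen differences was not tested.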

How the data were processed

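RNA from laser-microdissected tissue was amplified and sequenced, per the labels' protocols. The authors deposited a single table of log2 values, named after TMM scaling, and the submitters' processing notes name rn4. The sources used here do not give the aligner, counter or strand setting. The deposited log2 values proved to be scaled reads, with values under 1 set to 1, less each row's median. In rows above 0 in 1 library only, 94.0% to 96.7% of values were whole reads times a library constant (relative tolerance 1e-05). Levels were rebuilt from rows at that floor (3375) or from whole reads found to a tolerance of 1e-06 with a sum up to 20000 (5375). The remaining 2039 rows, among them all tested members but Col27a1, had a level known only within a bracket, whose middle served for the minimum level and the trend of the spread. Levels are therefore not compared between genes outside quantile normalization, and sums over marker genes are approximate. Differences in the main fit do not depend on levels. Those under quantile normalization, which ranks genes by level within each library, do depend on them, and a pseudocount also uses levels. Reads in rows where they were known summed to between 3758400 and 3954514 per library, and the total depth is unknown.

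The 8763 rows that averaged 10 or more scaled reads were fitted with limma 3.58.1 in R 4.3.3. The fit had zone and rat as terms, eBayes with trend, two-sided tests and 1 residual degree of freedom. It was run on simulated data with no rat effect and a spread not set from these libraries. That run does not test the fit at the spread seen here, a log2 SD of 2.72 between SFZ libraries and 1.45 between deep AC libraries. Rat was a block since the titles tie both zones to 1 animal; across genes, the difference between rats in SFZ and that in deep AC correlated at 0.05. Nothing was added to the log2 values. A ± is the SD over rats. The genes, lists, motifs and tests were chosen with earlier results of these data known. All members were named, and from each list up to 4 tested genes with the largest mean difference of the same sign in both rats. Timp1, Timp2, Timp3, Fmod and Prelp were named beside these. Alternatives were other pseudocounts, filters, scalings, priors, blocks and levels, and leaving out each library.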

Additional observations from a re-analysis of the deposited data

How the results depend on the processing

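Of 84 recomputed differences of the 6 tested collagen genes under 14 alternatives, 82 kept their direction. Both exceptions were Col27a1 when a library was left out. Its mean then ran from -0.61 to 0.04, with 0.0018 without SFZ rat 1 and 0.037 without deep AC rat 1. Changes of block, filter, prior or level leave the mean differences as they were by construction. Those alternatives bear on the spread and the p-values alone, and did not test direction. With quantile normalization Col2a1 (-2.63, adjusted p = 0.034), Col9a1 (-2.91, 0.00244) and Col9a2 (-3.02, 0.00141) passed the limma threshold; under the other alternatives they did not, and over all of them the adjusted p ran to 0.616, 0.345 and 0.329. Col11a1 (0.162 to 0.665), Col11a2 (0.291 to 0.761) and Col27a1 (0.621 to 1) passed under none. Under that scaling the all-gene median of rat 1 was 0.03, in place of -0.13. Quantile normalization used the estimated levels of these genes and was not run with levels at the ends of their bracket. With each rat's differences centred on their median, Col2a1 stood at -2.49, Col9a1 at -2.80 and Col9a2 at -2.97.

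The number of genes past the threshold was 3, all lower in SFZ: Ibsp, Polrmt and Tnni2, singled out after their values were seen. It was 1 with no replicate block, with no minimum level and with a minimum mean of 100 scaled reads, 8 with a pseudocount of 1, 24 after centring, 173 with quantile normalization (75 higher, 98 lower), and 0 with an untrended prior or with levels at the low end of their bracket, an alternative chosen after seeing the data. Leaving out a library gave 0 to 406: 0 without SFZ rat 1 or rat 2, 367 without deep AC rat 1 and 406 without deep AC rat 2. These fits have no rat term, and the lone library is assumed to vary like the other zone; the cause of the spread in counts was not tested. Without the replicate block the collagen differences are the same by construction, and no call of a collagen gene changed. The ratios to Col2a1 kept their sign in each rat alone.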
